A study of Mus musculus with 19 samples.

Results

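The interferon response module examined here is a set of 36 mouse genes that interferons switch on, chosen by gene symbol. All 36 were found among the 24192 genes of the deposited tables, each under 1 gene ID, and all 36 passed the filter on low counts in every comparison. They were measured by RNA sequencing of whole livers from adult mice, 19 libraries in 4 groups that crossed diet with genotype. LF-C stands for control mice on a low fat diet (LFCF, 4 libraries, labelled healthy) and LF-KO for mice on that same diet whose labels give a PPARγ knockout in hepatocytes (4 libraries). HF-C stands for control mice on a diet rich in fat, cholesterol and fructose (HFCF, 5 libraries, labelled non-alcoholic steatohepatitis) and HF-KO for mice labelled as knockouts on that diet (6 libraries). PPARγ is a lipid-sensing nuclear receptor that promotes fat storage. The knockout was induced in adult mice ahead of 24 weeks of the HFCF diet. The sources used here do not name the driver or the method of the deletion, so what the controls share with the knockouts besides the diet is not known here. Each library carries an ID of its own in the labels and is treated as 1 mouse.

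Interferons are secreted proteins that cells release on sensing foreign or misplaced nucleic acid. Type I and type III interferons act through receptor-bound kinases to assemble a factor made of STAT proteins and IRF9, while type II interferon acts through a STAT dimer, and both raise a broad set of target genes. In the liver these genes are expressed by hepatocytes, Kupffer cells, endothelium and incoming immune cells. The 36 genes fall into 5 roles: 16 antiviral effectors, which degrade or block viral RNA and proteins, 3 sensors of foreign nucleic acid, 6 transcription factors and regulators, 8 interferon-inducible GTPases, which attack membranes around intracellular microbes, and 3 genes of antigen processing. Mx2, counted among the effectors, is annotated in the deposited data as a polymorphic pseudogene.

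The promoters of 4 members show the element through which this response is classically read. A promoter window of 300 bases, 250 before and 50 after the transcription start, was listed in RefSeq on build GRCm38.p6 for 27 of the 36 members. The core of the interferon-stimulated response element, GAAA followed by any 2 bases and GAAA again, was searched on both strands, where the reverse strand reads TTTC, any 2 bases and TTTC. It was present in 15 of the 27 members and in 3.99% of all 27025 genes with a window. The core bound by STAT dimers, TTCNNNGAA, which reads alike on both strands, was present in 9 of the 27 and in 9.55% of all genes. Among members with a window, the response element core was present in 6 of the 9 that rose in HF-C over LF-C and in 9 of the 18 that did not. The other members that rose, Gbp6, Mx1, Oas2, Parp14, Usp18 and Zbp1, had no window, so these counts leave them out. The 4 printed here are the members with a match and the smallest p in that comparison, 5′ to 3′ on the gene's own strand, with the matches in capitals.
Gbp3 (chr3:142559794-142560093, plus strand): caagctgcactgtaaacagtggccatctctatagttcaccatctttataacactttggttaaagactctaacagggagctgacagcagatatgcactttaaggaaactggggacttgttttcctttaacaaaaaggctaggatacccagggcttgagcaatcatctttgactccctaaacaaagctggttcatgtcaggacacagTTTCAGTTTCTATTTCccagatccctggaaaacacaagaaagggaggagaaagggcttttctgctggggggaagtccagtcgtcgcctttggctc
Oas3 (chr5:120777610-120777909, minus strand): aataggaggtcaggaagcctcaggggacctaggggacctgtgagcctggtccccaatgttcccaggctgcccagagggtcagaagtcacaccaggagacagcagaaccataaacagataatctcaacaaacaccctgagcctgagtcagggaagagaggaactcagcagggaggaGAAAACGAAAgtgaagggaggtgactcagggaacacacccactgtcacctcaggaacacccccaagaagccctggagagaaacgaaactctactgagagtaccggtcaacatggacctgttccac
Rsad2 (chr12:26456403-26456702, minus strand): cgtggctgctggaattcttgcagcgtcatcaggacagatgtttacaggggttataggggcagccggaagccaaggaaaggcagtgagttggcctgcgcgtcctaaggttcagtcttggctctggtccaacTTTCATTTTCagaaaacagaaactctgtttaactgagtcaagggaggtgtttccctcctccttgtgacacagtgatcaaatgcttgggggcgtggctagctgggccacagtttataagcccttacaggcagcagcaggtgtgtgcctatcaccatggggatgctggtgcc
Ifit3 (chr19:34583279-34583578, plus strand): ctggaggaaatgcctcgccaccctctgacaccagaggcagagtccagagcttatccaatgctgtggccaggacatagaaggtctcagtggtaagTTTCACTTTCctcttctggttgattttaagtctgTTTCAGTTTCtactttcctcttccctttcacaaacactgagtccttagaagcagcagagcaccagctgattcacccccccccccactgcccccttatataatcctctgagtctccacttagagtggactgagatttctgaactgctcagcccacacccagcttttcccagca
Gbp3 carried 2 matches that overlap, between 45 and 30 bases before the start. Oas3 and Rsad2 carried 1 match each, and Ifit3 carried 2 within 156 bases before its start. Several members lie close to related members: Ifit1, Ifit2 and Ifit3 on chromosome 19, Oas1a, Oas2 and Oas3 on chromosome 5, Oasl1 and Oasl2 elsewhere on chromosome 5, Gbp2, Gbp3 and Gbp7 on chromosome 3, Igtp and Irgm2, which overlap, on chromosome 11, and Psmb8, Psmb9 and Tap1 on chromosome 17.

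The libraries held 11437875 to 20711869 counted fragments. The TMM scaling factor was 0.644 in LF-C-2 and 0.865 to 1.207 in the other 18 libraries, and the 10 most abundant genes took 25.5% of the counts in LF-C-2 against 14.6% to 20.2% elsewhere. Mitochondrial counts made up 1.64% in LF-C-2, while all other libraries had 4.02% to 5.92%. Deviations correlated with gene length at a rho of -0.469 for LF-C-2 and -0.427 for HF-KO-2. LF-C-3 (0.448) and LF-C-4 (0.440) had the opposite sign. The remaining libraries lay between -0.301 and 0.390. The part of this length trend in the results was not tested. Pparg itself read 11.2 ± 5.74 CPM in LF-C and 25.3 ± 15.4 CPM in LF-KO (SD, n = 4 each). On the HFCF diet it read 25.4 ± 4.32 CPM in controls (n = 5) and 68.7 ± 25.6 CPM in HF-KO (n = 6), so it was higher in the libraries labelled as knockout. A whole-gene count does not separate deleted from retained exons, and the labels do not give the deleted part, so this value checks nothing about the deletion. LF-KO and HF-KO below mean the libraries so labelled. Levels are CPM, the count of a gene scaled to the library's TMM-adjusted depth, and a gene is called where its adjusted p in edgeR's quasi-likelihood test was under 0.05.

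In control livers, the HFCF diet went with higher levels of 15 of the 36 members, and no member was called lower. The shares called among all 13825 genes tested were 10.6% higher and 7.15% lower. The median log2 difference was 0.75 over the members and 0.02 over all genes tested, and 32 of 36 members lay above 0. The largest rises were in Ifit2 (log2 2.18 ± 0.22, SE) and Mx1 (2.11 ± 0.28), followed by Oas2 (1.95 ± 0.27) and Oas3 (1.84 ± 0.29). Every HF-C library was above every LF-C library for 14 members, which was so for 13.3% of all genes tested. In these bulk livers, more cells of a type and more RNA per cell cannot be told apart. Markers of recruited and lipid-associated macrophages moved with this result. Of the 14 listed, Adgre1 had no row, and 11 of the 13 tested rose. None of those 13 was at 0 in any group, and their summed level was 126 to 306 CPM in LF-C and 713 to 970 CPM in HF-C. The largest part of the sum was Spp1 in HF-C (mean 335 CPM), HF-KO (129 CPM) and LF-KO (55.7 CPM). In LF-C it was Csf1r (92.8 CPM). The part of these markers in the result was not tested.

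**Figure D1:**
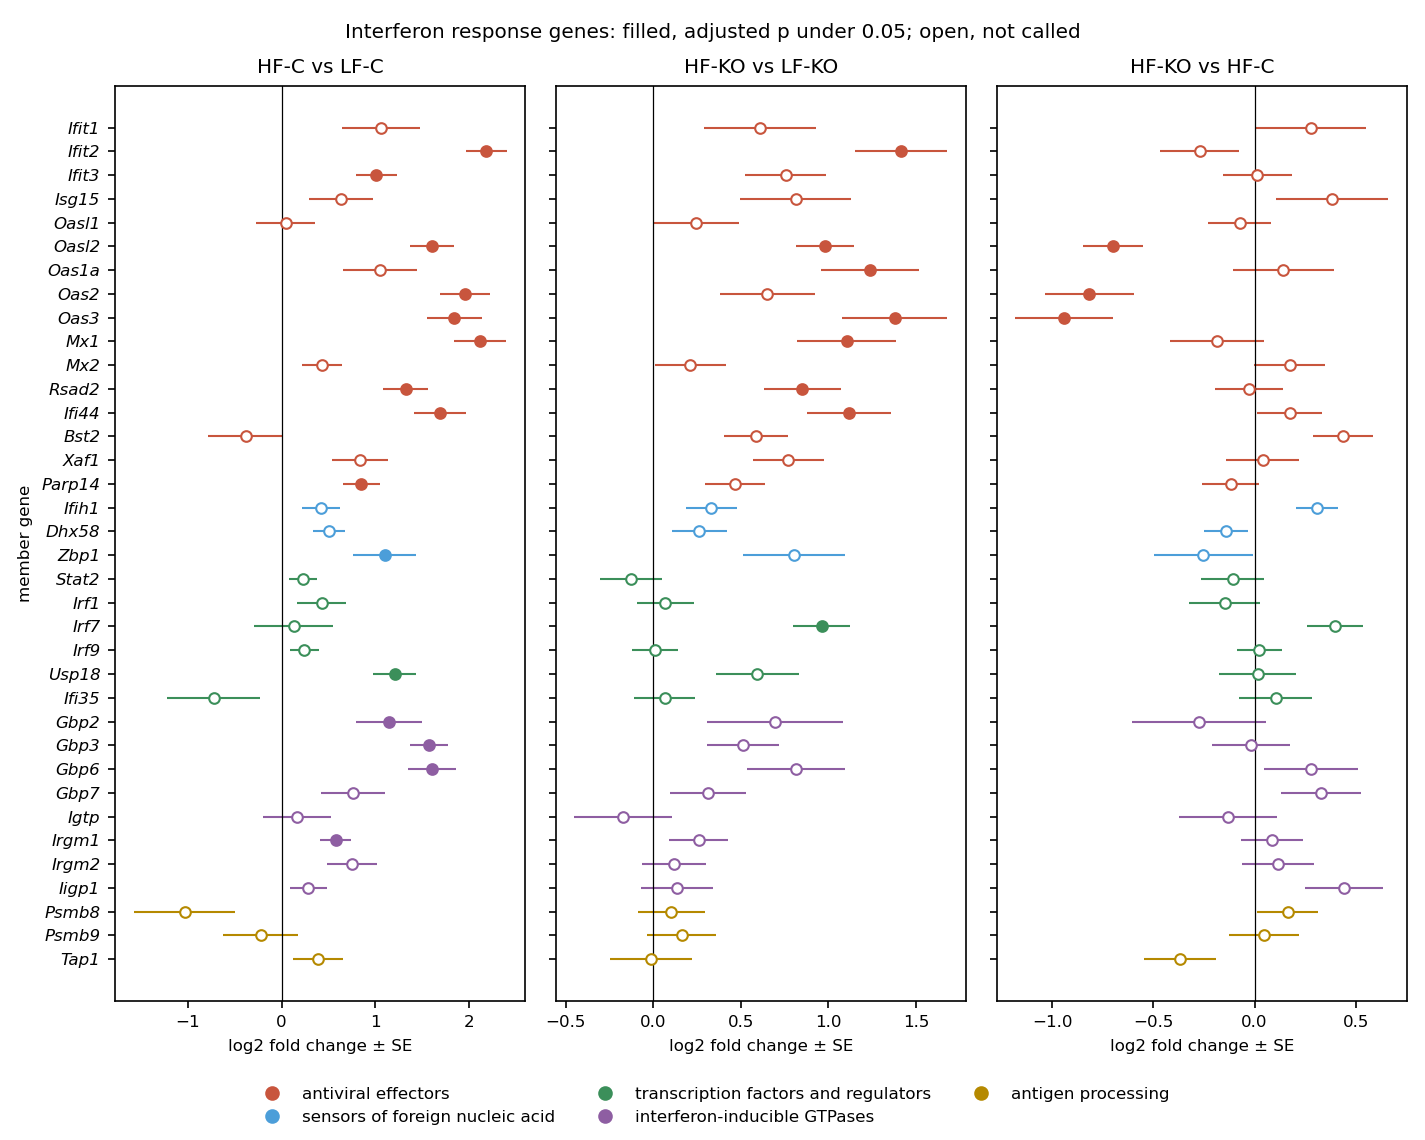
Log2 fold change ± SE (x axis, a separate scale in each panel) of the 36 members in 3 comparisons, coloured by role, with filled points for adjusted p under 0.05. In HF-C over LF-C 15 points are filled, all to the right of 0. In HF-KO over LF-KO 8 are filled, all to the right, and in HF-KO over HF-C 3 are filled, Oasl2, Oas2 and Oas3, all to the left.

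Among the antiviral effectors, 9 of 16 rose in HF-C, with a median log2 difference of 1.05 over the 16. Ifit2 encodes a protein that binds foreign RNA and blocks its translation. It read 4.22, 2.70, 4.57 and 5.11 CPM in LF-C and 19.6, 19.3, 17.5, 15.3 and 23.8 CPM in HF-C (adjusted p = 0.00028). All 5 HF-C libraries were above all 4 LF-C libraries, with no value of either group near the other. Mx1, a GTPase that blocks the nucleoproteins of influenza and related viruses, read 1.51, 2.03, 1.16 and 1.68 CPM in LF-C and 6.85, 5.94, 9.49, 4.74 and 8.21 CPM in HF-C (adjusted p = 0.000906). The groups did not overlap, although all values were low.

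The oligoadenylate synthetases make a second messenger that switches on an RNA-degrading enzyme. Oas2 read 2.01, 4.50, 4.37 and 4.23 CPM in LF-C and 15.5, 12.6, 19.8, 11.3 and 15.8 CPM in HF-C (adjusted p = 0.00117). Oas3 read 1.51, 2.85, 3.07 and 1.81 CPM in LF-C and 7.87, 6.12, 9.08, 7.36 and 12.1 CPM in HF-C (adjusted p = 0.00221). The related Oasl2 read 6.23, 10.7, 5.87 and 6.65 CPM in LF-C and 22.8, 22.7, 23.2, 17.3 and 27.9 CPM in HF-C (log2 1.60 ± 0.23, adjusted p = 0.00157). For all 3 genes the lowest HF-C library was above the highest LF-C library. Ifi44, an interferon-induced protein of the cytoplasm, read 2.51, 5.10, 2.32 and 4.23 CPM in LF-C and 14.2, 9.97, 11.0, 9.48 and 13.9 CPM in HF-C (log2 1.69 ± 0.28, adjusted p = 0.00276), again without overlap. The other effectors called were Rsad2 (log2 1.32), which encodes viperin and makes a chain-terminating nucleotide, Ifit3 (1.01), a partner of the other IFIT proteins, and Parp14 (0.85), an ADP-ribosyltransferase.

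**Figure D2:**
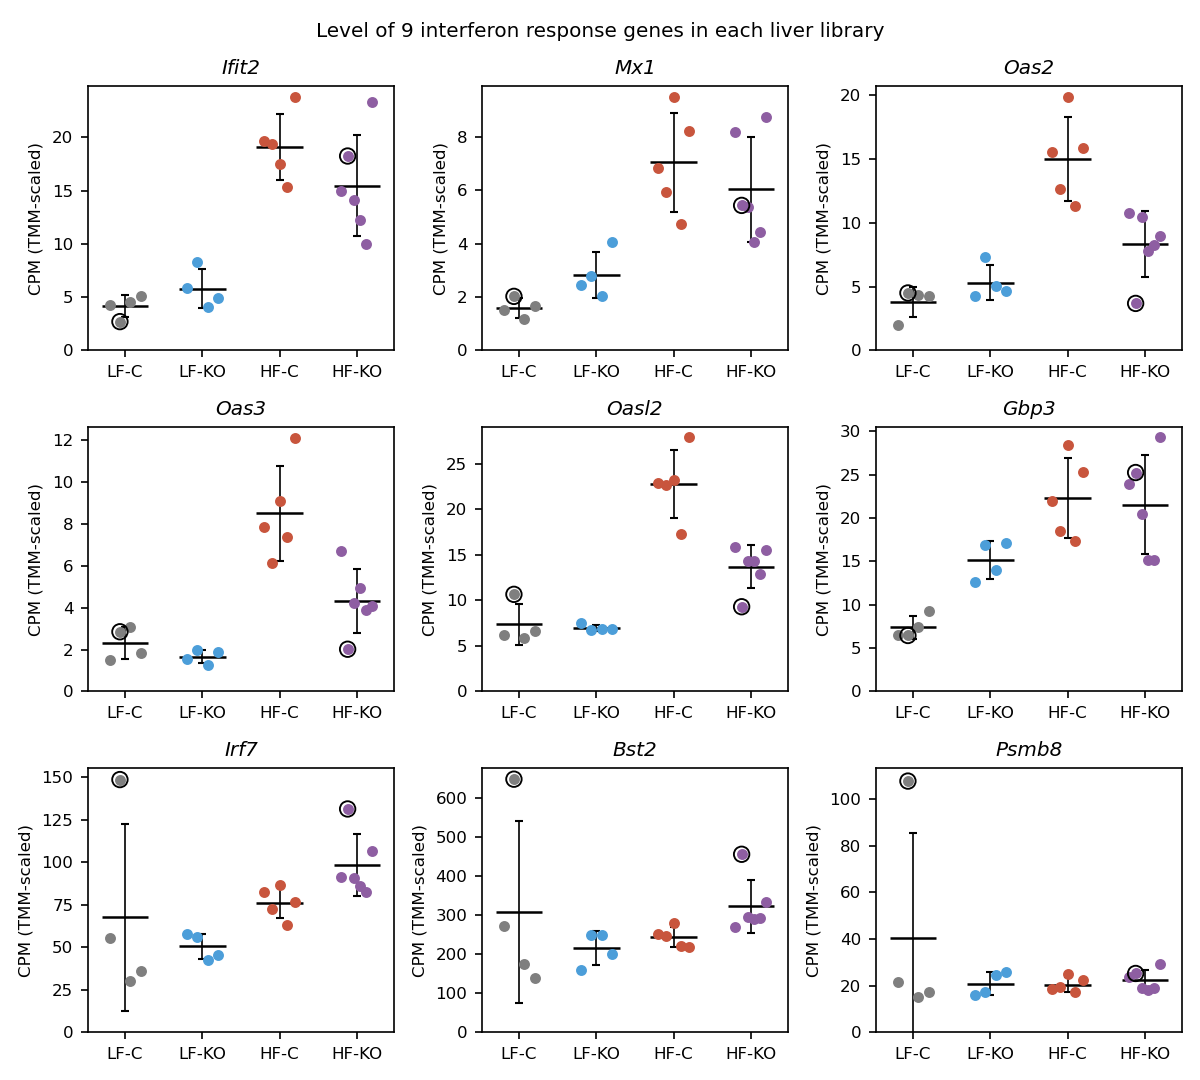
CPM (y axis, from 0, a separate scale in each panel) of 9 members in the 19 libraries, 1 point per library, with the mean as a line and the SD as bars, cut at 0 where they would pass below it. Rings mark LF-C-2 and HF-KO-2. The HF-C points of Ifit2, Mx1, Oas2, Oas3, Oasl2 and Gbp3 lie above all LF-C points, while for Irf7, Bst2 and Psmb8 the ringed LF-C-2 point is the highest of its group.

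Other effectors did not pass the test. Isg15, a ubiquitin-like modifier that is attached to proteins during the response, read 9.15, 21.8, 6.49 and 7.39 CPM in LF-C and 18.4, 19.4, 17.8, 15.4 and 17.997 CPM in HF-C (log2 0.63 ± 0.34, adjusted p = 0.222). Here LF-C-2 alone was above all HF-C libraries. Bst2, or tetherin, which holds budding virus particles at the cell surface, read 272, 648, 176 and 139 CPM in LF-C and 252, 248, 280.1, 221 and 218 CPM in HF-C (log2 -0.39 ± 0.40, adjusted p = 0.533). Its HF-C libraries lay within the range of LF-C. Of the rest, Oas1a (log2 1.05), Ifit1 (1.06), Xaf1 (0.84), Mx2 (0.43) and Oasl1 (0.04) were not called.

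Of the 3 sensors, Zbp1 rose in HF-C (log2 1.10 ± 0.34, adjusted p = 0.0464). Zbp1 recognises nucleic acid in the left-handed Z form and can trigger inflammatory cell death. Ifih1, which encodes the RNA sensor MDA5, read 29.8, 23.3, 34.9 and 51.3 CPM in LF-C and 47.7, 52.2, 45.5, 43.4 and 46.9 CPM in HF-C (log2 0.42 ± 0.20, adjusted p = 0.175). The groups overlapped, with LF-C-4 near the top of HF-C. Dhx58, the regulator of RNA sensing known as LGP2, was 0.50 ± 0.17 on the log2 scale and was not called.

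Among the 6 transcription factors and regulators, Usp18 alone was called. Usp18 removes ISG15 from proteins and dampens signalling at the type I receptor. It read 12.2, 12.004, 6.69 and 14.5 CPM in LF-C and 28.2, 32.5, 23.8, 25.4 and 22.9 CPM in HF-C (log2 1.2 ± 0.23, adjusted p = 0.00575), without overlap. Stat2, a subunit of the factor that binds the response element, read 73.4, 71.2, 77.0 and 70.0 CPM in LF-C and 89.6, 80.5, 107, 72.3 and 85.0 CPM in HF-C (log2 0.23 ± 0.15, adjusted p = 0.301). Its level was close to even across the 4 LF-C libraries, and HF-C-4 lay among them. Irf7, the amplifying factor of type I interferon production, read 55.8, 149, 30.2 and 35.9 CPM in LF-C and 82.3, 72.8, 86.9, 63.3 and 76.6 CPM in HF-C (log2 0.13 ± 0.42, adjusted p = 0.861). All 5 HF-C libraries were above 3 LF-C libraries and below LF-C-2. Irf1 (log2 0.43), Irf9 (0.24) and Ifi35 (-0.73) were not called.

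Of the 8 interferon-inducible GTPases, 4 rose in HF-C, with a median log2 difference of 0.75. The guanylate-binding proteins Gbp2, Gbp3 and Gbp6 were among them, and Gbp7 (log2 0.76) was not called. Gbp3 read 6.54, 6.45, 7.37 and 9.27 CPM in LF-C and 22.0, 18.5, 28.4, 17.4 and 25.3 CPM in HF-C (log2 1.57 ± 0.20, adjusted p = 0.000814). Gbp6 read 14.3, 20.9, 17.2 and 22.9 CPM in LF-C and 61.7, 51.8, 81.3, 34.1 and 62.1 CPM in HF-C (log2 1.60 ± 0.25, adjusted p = 0.00225). Neither gene overlapped between the groups, and HF-C-4 was the lowest HF-C library for both. Gbp2 had a log2 difference of 1.14 ± 0.35 (adjusted p = 0.0472). Of the immunity-related GTPases, Irgm1, which regulates the others, rose by 0.57 ± 0.17 on the log2 scale (adjusted p = 0.0388).

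The other immunity-related GTPases were not called. Irgm2 read 36.9, 35.7, 68.1 and 71.2 CPM in LF-C and 95.3, 86.4, 105, 54.9 and 109 CPM in HF-C (log2 0.75 ± 0.27, adjusted p = 0.077). HF-C-4 fell inside the LF-C range. Igtp, also known as Irgm3, read 31.6, 76.7, 23.7 and 34.6 CPM in LF-C and 39.5, 47.4, 72.9, 29.8 and 49.8 CPM in HF-C (log2 0.16 ± 0.36, adjusted p = 0.791). Iigp1, an effector that coats the vacuoles of parasites, read 215, 217, 323 and 368 CPM in LF-C and 321, 319, 432, 302 and 356 CPM in HF-C (log2 0.28 ± 0.20, adjusted p = 0.344). The groups overlapped for all 3 genes.

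None of the 3 antigen-processing genes was called. Psmb8, an inducible subunit of the immunoproteasome, read 21.7, 108, 15.3 and 17.1 CPM in LF-C and 18.6, 19.3, 24.9, 17.1 and 22.4 CPM in HF-C (log2 -1.04 ± 0.54, adjusted p = 0.206). The difference below 0 came with 1 library, LF-C-2, whose value was far above every other library of the study. Its partner subunit Psmb9 (log2 -0.22) and the peptide transporter Tap1 (0.39) were not called either. In the deposited gene spans Psmb9 overlaps Tap1, Igtp overlaps Irgm2, Gbp3 and Gbp7 overlap Gbp5, Irf7 overlaps Phrf1 and Irf9 overlaps Rnf31. The libraries did not keep strand, so reads from the shared stretches cannot be told apart. Gbp, Oas and Ifit genes also have close copies that can share reads.

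LF-C-2 changed which members were called. It was the highest LF-C library for 10 of the 12 shortest members (listed lengths 756 to 2412 bases) and for 5 of the 12 longest (3832 to 7417 bases). Without it, 22 members were called higher in HF-C and none lower. Of all genes tested, 37% had an unadjusted p under 0.05 without LF-C-2, against 34.3% with all libraries. The members added without LF-C-2 were Irf7 (log2 0.87), Isg15 (1.18), Oas1a (1.69), Ifit1 (1.36), Xaf1 (1.25), Dhx58 (0.53) and Tap1 (0.73). Psmb8 (0.15), Psmb9 (0.46), Bst2 (0.27) and Ifi35 (0.28) then lay above 0 without being called. Of the 15 calls made with all libraries, 12 held whichever single library was left out. Gbp2 was lost without any single library other than LF-C-2 and HF-C-4. Irgm1 was lost without any single library other than LF-C-2, LF-C-4 and HF-C-4, and Zbp1 without any other than LF-C-2. In the authors' deposited table of this comparison, 15 members had an adjusted p under 0.05, all higher in HF-C. Shares over all genes were not counted in the authors' tables.

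**Figure D3:**
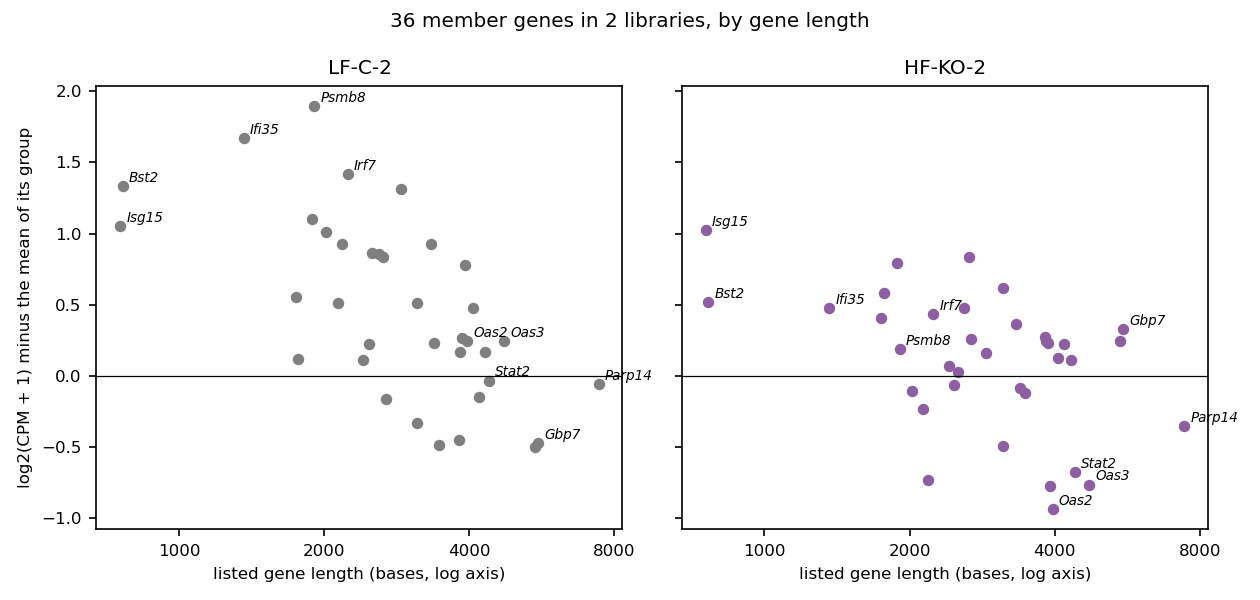
Deviation of each of the 36 members from its group mean, as a difference in log2(CPM + 1) (y axis), against the listed gene length in bases (x axis, log scale), in LF-C-2 and HF-KO-2, 1 point per gene. In both libraries the short genes Isg15, Bst2 and Irf7 lie above 0. In HF-KO-2 the long genes Oas2, Oas3 and Stat2 lie below 0, while the long genes Gbp7, Ifih1 and Irgm1 lie above it. The short genes Oasl1 and Irf1 lie below 0 there.

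Between the 2 diets in livers labelled as knockout, 8 members rose in HF-KO over LF-KO and none was called lower. Of all 13624 genes tested, 3.62% were called higher and 1.06% lower. The median log2 difference was 0.55 over the members and 0.01 over all genes, and 33 of 36 members lay above 0. The effectors held 7 of the 8 calls, Irf7 was the eighth, and no GTPase, sensor or antigen-processing gene was called. Markers of recruited macrophages moved here too, with 10 of 13 called higher and a summed level of 117 to 238 CPM in LF-KO and 283 to 515 CPM in HF-KO. Their part in the result was not tested.

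Ifit2 read 5.90, 8.32, 4.08 and 4.88 CPM in LF-KO and 9.95, 14.5 and 23.3 CPM as the lowest, median and highest of the 6 HF-KO libraries (log2 1.41 ± 0.26, adjusted p = 0.0179). Oas3 read 1.54, 1.97, 1.28 and 1.88 CPM in LF-KO and 2.02, 4.16 and 6.73 CPM, in that same order, in HF-KO (log2 1.38 ± 0.30, adjusted p = 0.0283). The groups did not overlap for either gene, but the lowest HF-KO library for Oas3, HF-KO-2, was just above LF-KO. Oasl2 was even across LF-KO at 7.50, 6.78, 6.80 and 6.83 CPM, and its HF-KO libraries had 9.29, 14.3 and 15.8 CPM as lowest, median and highest (log2 0.98 ± 0.17, adjusted p = 0.0151). Irf7 read 58.0, 55.9, 42.7 and 45.7 CPM in LF-KO and 82.4, 91.2 and 131 CPM in HF-KO (log2 0.96 ± 0.16, adjusted p = 0.0144). Both were separated without overlap.

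Ifi44 (log2 1.12), Mx1 (1.11), Oas1a (1.24) and Rsad2 (0.85) made up the other calls. Ifi44 read 7.50, 7.95, 3.55 and 4.73 CPM in LF-KO against 10.02, 12.1 and 17.2 CPM as lowest, median and highest of HF-KO. Mx1 read 2.44, 2.77, 2.04 and 4.06 CPM in LF-KO against 4.07, 5.41 and 8.77 CPM. Its highest LF-KO library, LF-KO-4, was level with its lowest HF-KO library. The groups did not overlap for 10 members, the 8 called and Bst2 and Xaf1, all higher in HF-KO, against 4.6% of all genes tested. Bst2 read 161, 250.4, 249.6 and 201 CPM in LF-KO and 269.9, 294 and 456 CPM in HF-KO (log2 0.59 ± 0.18, adjusted p = 0.089).

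The GTPases had a median log2 difference of 0.29 between the diets in knockout-labelled livers. Gbp6 read 43.9, 38.7, 20.7 and 54.0 CPM in LF-KO and 46.6, 64.6 and 111 CPM as lowest, median and highest of HF-KO (log2 0.82 ± 0.28, adjusted p = 0.122). Gbp3 read 12.6, 16.9, 14.0 and 17.1 CPM in LF-KO and 15.2, 22.2 and 29.3 CPM in HF-KO (0.51 ± 0.21, adjusted p = 0.187). The groups overlapped for both. Irgm2 (0.12 ± 0.18) had 78.2, 85.7 and 130.5 CPM in HF-KO and Iigp1 (0.14 ± 0.20) had 305, 431 and 679 CPM, both with LF-KO libraries inside those ranges. Oas2, which was called in control livers, had 4.23, 7.33, 5.06 and 4.66 CPM in LF-KO and 3.68, 8.60 and 10.8 CPM in HF-KO (0.65 ± 0.27, adjusted p = 0.205). Its HF-KO-2 library was below every LF-KO library.

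These calls leaned on single libraries. No member was called when LF-KO-3 was left out, when 13 still had an unadjusted p under 0.05, and none when LF-KO-4 was left out, when 20 did. Of all genes tested, 14.0% and 14.5% had one in those fits. With those libraries out, edgeR called 0 and 4 genes of all tested. Counted over members only, DESeq2 called 8 and 11 and limma-voom called 0 and 0. Of all genes, 16.1% and 16.4% had an unadjusted p under 0.05 in those DESeq2 fits, and 13.3% and 14.1% in limma-voom. By edgeR, 4 members were called without LF-KO-1, 5 without HF-KO-1 and 3 without HF-KO-6. In the authors' deposited table, 11 members were under 0.05, all higher in HF-KO.

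Both diet comparisons, which share no library, called 6 members: Ifi44, Ifit2, Mx1, Oas3, Oasl2 and Rsad2. These were 40% of the 15 called in control livers and 75% of the 8 called in knockout-labelled livers. The matching shares over all genes were not counted, so whether these percentages stand out is not known here. Called in control livers alone were Gbp2, Gbp3, Gbp6, Ifit3, Irgm1, Oas2, Parp14, Usp18 and Zbp1. Irf7 and Oas1a were called in knockout-labelled livers alone, and 19 members in neither. A gene called on one side and not on the other is not thereby shown to differ, and the test of that difference is given with the diet-by-genotype contrast.

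**Figure D4:**
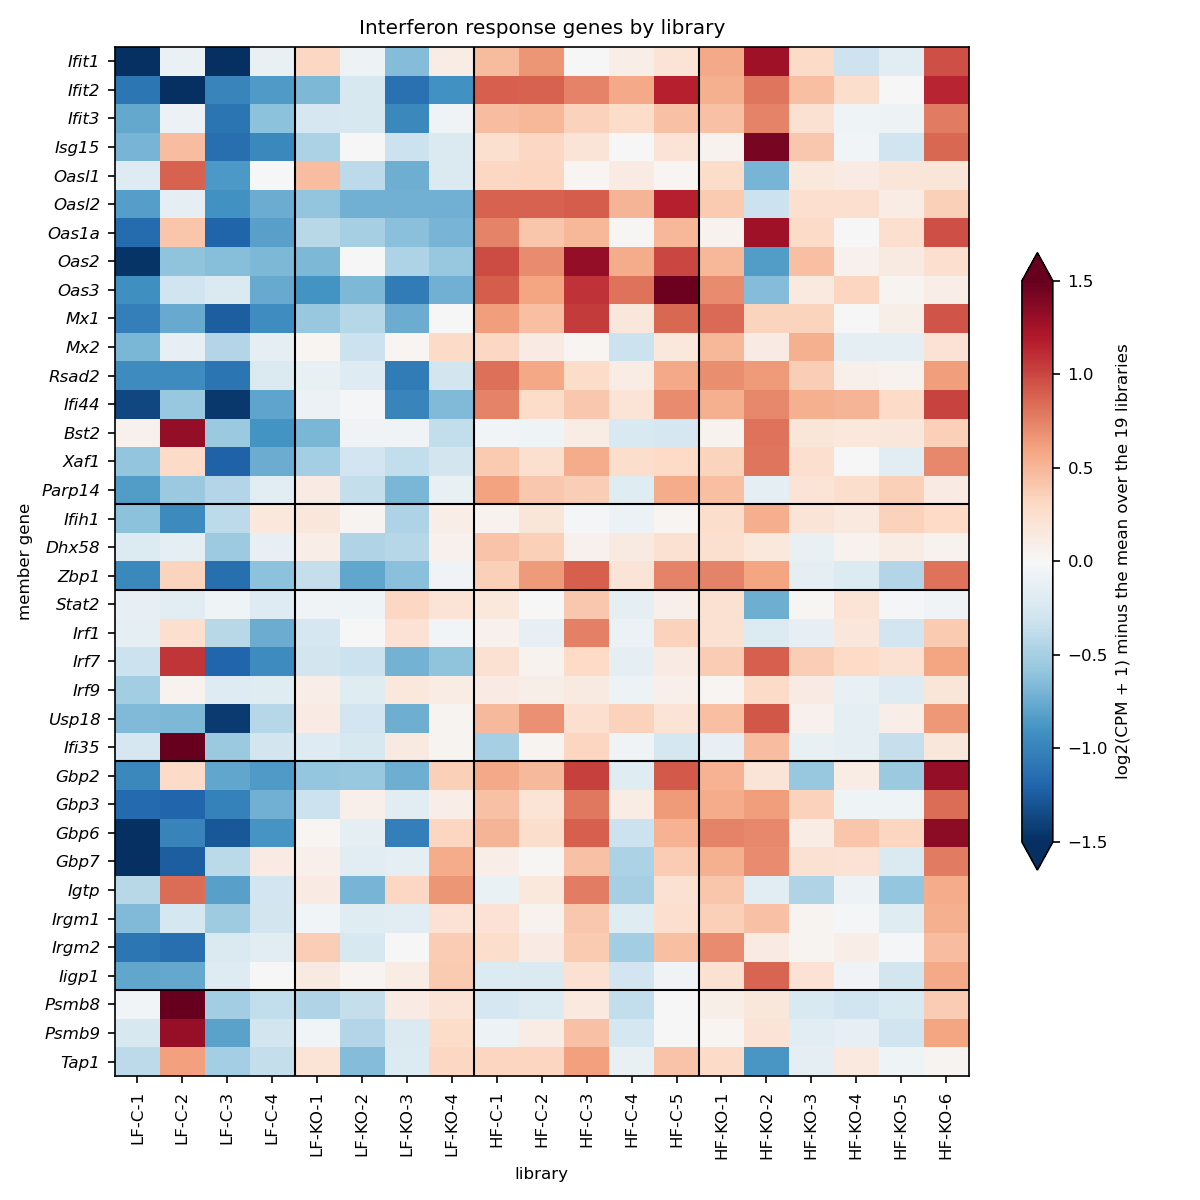
Each cell is log2(CPM + 1) of a member (rows, in blocks by role) minus its mean over the 19 libraries (columns, in blocks by group), with colours ending at 1.5 in either direction. The HF-C and HF-KO blocks are mostly above 0 and the LF-C block mostly below. LF-C-2 stands out in Irf7, Ifi35, Bst2, Psmb8 and Psmb9.

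Within the HFCF diet, 3 members were lower in HF-KO than in HF-C and none was called higher. All 3 were from the oligoadenylate synthetase family. Oas1a (log2 0.14 ± 0.25) and Oasl1 (-0.07 ± 0.16), of the same family, were not called. The shares of all 13915 genes tested were 5.43% lower and 4.35% higher, so 3 of 36 is near the background. The median log2 difference was 0.02 over the members and 0.02 over all genes. Oasl2 had 22.8, 22.7, 23.2, 17.3 and 27.9 CPM in HF-C and 9.29, 14.3 and 15.8 CPM as lowest, median and highest of HF-KO (log2 -0.70 ± 0.15, adjusted p = 0.0113). Oas2 had 15.5, 12.6, 19.8, 11.3 and 15.8 CPM in HF-C and 3.68, 8.60 and 10.8 CPM in HF-KO (log2 -0.82 ± 0.22, adjusted p = 0.0351). All 6 HF-KO libraries were below all 5 HF-C libraries for both genes, as were 5.68% of all genes tested. Oas3 had 7.87, 6.12, 9.08, 7.36 and 12.1 CPM in HF-C and 2.02, 4.16 and 6.73 CPM in HF-KO (log2 -0.94 ± 0.24, adjusted p = 0.0286), and the groups met at HF-KO-1 and HF-C-2.

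HF-KO-2 was the lowest HF-KO library for all 3 synthetases, and without it they remained lower in HF-KO, by log2 differences of -0.62 for Oasl2, -0.68 for Oas2 and -0.81 for Oas3, all called. Oasl2 was called whichever library was left out. Oas2 was lost without any single library other than HF-C-4, HF-KO-1, HF-KO-2 and HF-KO-3. Oas3 was lost without any single library other than HF-C-2 and the HF-KO libraries 1, 2 and 4. Recruited macrophage markers moved in the direction of the 3 synthetases, with 9 of 13 lower in HF-KO. The median log2 difference was -0.90 over these markers and 0.02 over the 36 members, of which 20 lay above 0. The markers' summed levels of 283 to 515 CPM did not meet the 713 to 970 CPM of HF-C. Their part in the result was not tested.

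Other members were close to even between HF-KO and HF-C. Gbp3 (log2 -0.02 ± 0.19) had 15.2, 22.2 and 29.3 CPM as lowest, median and highest of HF-KO, which spanned all 5 HF-C libraries. Usp18 (0.02 ± 0.19), at 18.01, 24.4 and 38.6 CPM in HF-KO, did likewise. Stat2 (-0.11 ± 0.16) had 48.0, 80.4 and 94.6 CPM, with HF-KO-2 alone below the HF-C range. Psmb8 (0.16 ± 0.15) had 18.01, 21.4 and 29.3 CPM and Igtp (-0.13 ± 0.24) had 28.0, 39.1 and 62.6 CPM. Values above 0 that edgeR did not call were seen for Ifih1 (0.31 ± 0.10, adjusted p = 0.0727), Irf7 (0.40 ± 0.14, adjusted p = 0.0839) and Bst2 (0.44 ± 0.15, adjusted p = 0.0746). Ifih1 had 51.2, 56.3 and 67.6 CPM in HF-KO against a highest HF-C value of 52.2 CPM. DESeq2 called these 3 as higher. The authors' deposited table had 2 members higher, Bst2 and Ifih1, and the same 3 synthetases lower. Isg15 (0.38 ± 0.28) spread from 12.4 to 43.1 CPM in HF-KO around a median of 18.4 CPM.

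On the low fat diet, no member was called between LF-KO and LF-C by edgeR, and the share called among all 13056 genes tested was 0% in either direction. The median log2 difference was 0.23 over the members and -0.03 over all genes, 27 of 36 members lay above 0, and 5 had an unadjusted p under 0.05, as did 4.24% of all genes tested. DESeq2 called 1 member, Gbp3, and limma-voom called 0. In that DESeq2 fit 6.32% of all genes had an unadjusted p under 0.05. The authors' deposited table had 0 members under 0.05, with Gbp3 at an adjusted p of 0.0886. Gbp3 read 6.54, 6.45, 7.37 and 9.27 CPM in LF-C and 12.6, 16.9, 14.0 and 17.1 CPM in LF-KO (log2 1.01 ± 0.22, adjusted p = 0.704 in edgeR and 0.0252 in DESeq2). The groups did not overlap, nor did they for Mx1, Irgm1 and Iigp1, while 1.81% of all genes tested had LF-KO wholly above LF-C. Iigp1 read 406, 380.2, 400.2 and 486 CPM in LF-KO (log2 0.56 ± 0.23), against 368 CPM in its highest LF-C library.

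No GTPase was called on the low fat diet, and Gbp3, Gbp6, Irgm2 and Iigp1 had an unadjusted p under 0.05. Gbp6 read 43.9, 38.7, 20.7 and 54.0 CPM in LF-KO against 14.3, 20.9, 17.2 and 22.9 CPM in LF-C (log2 1.04 ± 0.30, adjusted p = 0.704). LF-KO-3 alone lay within the LF-C range. Irgm2 read 103, 67.3, 79.2 and 103 CPM in LF-KO against 36.9, 35.7, 68.1 and 71.2 CPM in LF-C (log2 0.72 ± 0.28, adjusted p = 0.704). The median over the 8 GTPases was 0.64 on the log2 scale. Usp18 (0.60 ± 0.29) read 21.7, 16.1, 11.5 and 20.4 CPM in LF-KO. Ifih1 (0.37 ± 0.26) read 52.1, 47.6, 33.2 and 49.3 CPM, Stat2 (0.22 ± 0.18) 77.4, 76.9, 99.5 and 92.5 CPM and Oas2 (0.46 ± 0.32) 4.23, 7.33, 5.06 and 4.66 CPM. None of these passed the test. Isg15 (0.17 ± 0.39) read 10.8, 15.5, 12.2 and 13.2 CPM, Igtp (0.18 ± 0.41) 46.4, 25.9, 53.0 and 67.9 CPM and Psmb8 (-0.998 ± 0.61) 16.2, 17.2, 24.4 and 25.9 CPM. Without LF-C-2 these 3 differences were 0.75 for Isg15, 0.68 for Igtp and 0.21 for Psmb8, none of them called, so the sign for Psmb8 turned with that library. Bst2 (-0.56 with it and 0.13 without) and Irf7 (-0.46 and 0.31) turned likewise.

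The difference of the knockout effect between diets was tested across all 19 libraries, and no member was called, with 0.202% of the 14391 genes tested called in either direction. The median difference was -0.34 over the members and 0.00 over all genes, and 6 members had an unadjusted p under 0.05, as did 12.9% of all genes. DESeq2 and limma-voom also called 0 members. The smallest p-values belonged to Gbp3 (log2 -1.05 ± 0.29, adjusted p = 0.139), Oas2 (-1.30 ± 0.39, adjusted p = 0.18) and Mx1 (-1.01 ± 0.40, adjusted p = 0.324). For Gbp3 the 2 knockout effects were 1.01 on the low fat diet and -0.02 on the HFCF diet, and for Oas2 they were 0.46 and -0.82. With LF-C-2 and HF-KO-2 both left out, a setting chosen after seeing the data, 0 members were called and 11 had an unadjusted p under 0.05, as did 11.4% of all genes.

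Levels can be compared between genes only per length, which the deposited FPKM values (fragments scaled to gene length and library depth) allow. Bst2 had the highest FPKM of the 36 in all 4 groups, at 313 ± 165 in LF-C and 261 ± 46.6 in LF-KO (SD, n = 4 each), against 362 ± 33.2 in HF-C (n = 5) and 442 ± 57.6 in HF-KO (n = 6). Between HF-C and LF-C its direction turned with the scaling, since the log2 difference on counts was -0.39 with TMM and 0.21 with library size alone, and neither was called. Iigp1 came second in every group, at 79.2 ± 31.9, 124 ± 14.4, 126 ± 19.97 and 153 ± 34.8 FPKM in the same order. Irf7 came next in all groups other than LF-KO, at 23.2 ± 13.6, 21.1 ± 4.16, 38.8 ± 4.84 and 46.0 ± 5.13 FPKM. The lowest were Mx1, at 0.394 ± 0.0557 FPKM in LF-C and 2.37 ± 0.661 in HF-C, and Oas3, at 0.416 ± 0.153 and 2.06 ± 0.630, which did not differ beyond their spread. Members that rose most were thus among those with the lowest levels, while the most abundant ones, Bst2 and Iigp1, were not called in any comparison by edgeR.

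The interferon genes themselves were at or near 0. Of 21 ligand genes looked for, 5 had a row and none passed the filter on low counts. Ifng, the type II interferon, had 21 reads in all, spread over 11 of the 19 libraries, and Ifnb1 had no row. Of 9 receptor and kinase genes, 4 rose in HF-C over LF-C, against 10.6% of all genes tested. Il10rb (log2 1.41 ± 0.20) and Ifnlr1 (3.17 ± 0.56), which form the type III receptor, were among them. The others were Ifngr2 (0.78 ± 0.14) and Ifngr1 (0.71 ± 0.15), which form the type II receptor. Ifnlr1 stayed low, at 0.110 CPM in LF-C and 1.09 CPM in HF-C. None of the 9 was called in HF-KO over LF-KO, and Il10rb (-0.57) and Ifngr1 (-0.37) were lower in HF-KO than in HF-C.

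Genes that sense nucleic acid upstream of interferon were called in part, 4 of 17 in HF-C over LF-C against 10.6% of all genes. They were the endosomal receptors Tlr9 (log2 3.06 ± 0.45) and Tlr7 (1.40 ± 0.23), Tmem173 (1.33 ± 0.29), which encodes STING, and Mb21d1 (1.97 ± 0.61), which encodes the DNA sensor cGAS. Mb21d1 lost its call without LF-C-1, LF-C-4 or any single HF-C library. In HF-KO over LF-KO, Tlr8 (1.72 ± 0.38) and Tlr7 (1.45 ± 0.35) rose and the transcription factor Irf3 (-0.49 ± 0.12) fell. Tmem173 was lower in HF-KO than in HF-C (-0.68 ± 0.20). Of 9 negative regulators tested, 1 rose in HF-C, Samhd1 (0.84 ± 0.20), a nucleotide hydrolase, which is near the share over all genes and was lost without LF-C-1. The phosphatase Ptpn6 (-0.65) and Socs1 (-0.89), an inhibitor of JAK kinases, were lower in HF-KO than in HF-C. Of 13 genes of the MHC class I pathway, none was called higher in HF-C and 1, H2-Q7, was lower (-1.03 ± 0.31), against 7.15% of all genes. H2-Q7 read 138, 296, 108 and 115 CPM in LF-C. Its difference was -0.59 without LF-C-2, still called, and the call was lost without LF-C-1 or any single HF-C library.

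A wider list of 40 other tested interferon-induced genes was counted alongside. In HF-C over LF-C, 15 were called higher, against 10.6% of all genes tested, and none lower. Among them were Phf11d (log2 1.66 ± 0.21), Ifi204 (1.40 ± 0.19) and Slfn8 (1.39 ± 0.21). In HF-KO over LF-KO 13 were called higher, against 3.62% of all genes tested. They included Oas1g (1.60 ± 0.31), Slfn5 (1.22 ± 0.23) and Ifi204 (1.18 ± 0.23). In HF-KO over HF-C 2 were called higher, Ifi27 (0.78 ± 0.18) and Ifitm3 (0.33 ± 0.10), and none lower, while 4.35% of all genes tested were called higher there. None of the pathway lists had a call in LF-KO over LF-C. Of the listed pathway genes called, 16 of 25 in HF-C over LF-C kept the call whichever library was left out, 0 of 16 did so in HF-KO over LF-KO and 2 of 7 in HF-KO over HF-C.

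Markers of other cells were counted alongside, since the livers were whole. Plasmacytoid dendritic cells are known for making type I interferon. Their summed markers were at 19.004 to 32.2 CPM in LF-C and 19.003 to 41.0 CPM in LF-KO. They were at 105 to 164 CPM in HF-C and 39.9 to 79.7 CPM in HF-KO. In HF-C most of that was Ly6d, at a mean of 109 CPM. In the other groups Tcf4, which other cells also express, was the larger part, at 20.5 CPM in LF-C, 19.7 in LF-KO and 26.6 in HF-KO against 3.08, 4.70 and 22.1 CPM of Ly6d. Siglech, which defines these cells, was at 0.894 CPM in LF-C and 0.750 CPM in HF-C. Of all genes tested, 10.6% were called higher and 7.15% lower in HF-C over LF-C. In HF-KO over LF-KO 1.06% were called lower, and in HF-KO over HF-C 4.35% higher and 5.43% lower. Hepatocyte markers were lower for 10 of 14 in HF-C over LF-C and for 5 of 14 in HF-KO over LF-KO, while 6 were higher and 1 lower in HF-KO over HF-C. Among T and NK cell markers 2 of 12 tested rose in HF-C, among neutrophil markers 1 of 3 and among B and plasma cell markers 0 of 6. Kupffer cell markers had 1 of 8 called higher and 2 lower in HF-C, and sinusoidal endothelium 1 of 12 lower. The part of these cells in the members' levels was not tested.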

How the data were processed

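Whole-liver libraries were not strand-specific and were mapped with STAR 2.5, per the labels' protocols. HTSeq 0.6.1 and DESeq2 are named in the submitters' processing notes, and the genome build is not given in the sources used here. The deposited tables hold the authors' raw counts per gene and their FPKM values for each library. They also hold, for each of the 4 pairs of groups, the authors' log2 fold change and adjusted p-value, which the file headers name. Counts of a library were identical across the tables that carry it (38 columns compared). A gene with no row in a library's first table was taken from another table of that library. It entered at 0 where none of them had a row.

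Counts were tested with edgeR 4.0.16 in R 4.3.3: TMM factors, filterByExpr, glmQLFit and glmQLFTest on the 2 groups of each pair, with no covariate, and Benjamini-Hochberg adjustment over all genes tested. The diet-by-genotype contrast used all 19 libraries. Each SE was taken as the fitted log2 difference over the root of its F statistic. The script was tested on simulated counts. Alternatives used median-of-ratios factors, library size alone, no filter, a mean of at least 1 CPM, DESeq2 1.42.0, limma-voom (limma 3.58.1), a replicate block, 1 fit of all libraries, and each library left out in turn. Values given in full are those of the 5 members with the smallest p in each pair, the 3 with the smallest p in the diet-by-genotype contrast, and Isg15, Irf7, Stat2, Ifih1, Usp18, Igtp and Psmb8. From other lists, up to 3 called genes with the smallest p were named, and Mb21d1 and Ifngr1 were added after their values were seen. The members and lists were chosen with earlier results of these data known. The p-values measure the spread between single livers.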

Additional observations from a re-analysis of the deposited data

Results flagged for a closer look

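Across the 18 members given in full, 72 sets of libraries (each gene in each group) were searched for a library far from the others by Dixon's criterion, and 6 were found. Chance alone gives about 1 in 20. Of the 6, 2 were in LF-C-2 and 2 in HF-KO-2. In LF-C-2, Psmb8 was at 108 CPM with the next library at 21.7 CPM, and Oasl2 was at 10.7 CPM with the next at 6.65 CPM. In HF-KO-2, Bst2 was at 456 CPM with the next at 333 CPM, and Stat2 was at 48.0 CPM with the next at 77.6 CPM. In LF-C-1, Oas2 was at 2.01 CPM with the next library at 4.23 CPM. In LF-KO-1, Oasl2 was at 7.50 CPM with the next at 6.83 CPM, a small gap in a group that was otherwise even.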

How the results depend on the processing

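Of the 15 members called in HF-C over LF-C, all kept their sign in all 17 alternatives and 9 kept their call in all of them: Gbp3, Gbp6, Ifi44, Ifit2, Mx1, Oas2, Oas3, Oasl2 and Usp18. Library size alone gave 26 called members, and 36.6% of all genes tested had an unadjusted p under 0.05, against 34.3% with TMM factors. This scaling moved the median of all genes from 0.02 to 0.43 and that of the members from 0.75 to 1.16. Relative to that shift the members' median stayed about where it was. Under some alternatives Bst2, Igtp, Irf7, Oasl1, Psmb8, Psmb9 and Ifi35, none of them called, changed sign. Leaving out 1 library gave 12 to 22 called members in HF-C over LF-C, 0 to 11 in HF-KO over LF-KO, 1 to 3 in HF-KO over HF-C, and 0 to 0 in LF-KO over LF-C and in the diet-by-genotype contrast. The share of all genes with an unadjusted p under 0.05 moved as well. It was 27.3% to 38.5%, 14% to 25.7% and 22.9% to 30.9% in the first 3 of these comparisons.

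Of the 8 members called in HF-KO over LF-KO, none kept its call in every alternative and all kept their sign. Runs chosen after seeing the data, with LF-KO-3 or LF-KO-4 left out, gave 8 and 11 called members by DESeq2 and 0 and 0 by limma-voom. DESeq2 with all libraries called 6 members in HF-KO over HF-C, 3 in each direction, and 1 member, Gbp3, in LF-KO over LF-C. The cause of these differences was not tested. Over all genes, the count called also moved with the tool, from 2458 in edgeR to 3870 in DESeq2 for HF-C over LF-C, from 637 to 1386 for HF-KO over LF-KO and from 1360 to 2347 for HF-KO over HF-C.

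The samples were treated as unpaired, and whether the replicate numbers pair them cannot be decided from weak correlations. Same-numbered libraries had correlations of their deviations from -0.183 to 0.182, and not every pair passed 0.1. Between HF-KO and LF-KO they were 0.180, 0.167, 0.112 and 0.065, while each other pair of groups held values of both signs. A fit with the replicate number as a block gave 9 called members in HF-C over LF-C and 2 in HF-KO over LF-KO, with 700 and 178 genes called over all, and by its construction it leaves fewer degrees of freedom. It gave 3 in HF-KO over HF-C, 0 in LF-KO over LF-C and 0 in the diet-by-genotype contrast.

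Depth limits the low members. Mx1 and Oas3 lay near 2 CPM or under in LF-C, the interferon ligands could not be tested, and 4 to 6 livers a group limit what can be called. Of the 12 shortest and the 12 longest members, LF-C-2 was the highest of its group for 10 and 5, and HF-KO-2 for 6 and 2. HF-KO-2 was the lowest HF-KO library for 1 and 5 of them. LF-C-3 was the lowest LF-C library for 10 of the 12 shortest.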
